A study of Mus musculus with 8 samples.

Results

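The 10 genes described here encode lysosomal proteases of monocytes and the enzyme that prepares their substrates: the cathepsins Ctsa, Ctsb, Ctsc, Ctsd, Ctsh, Ctsl, Ctss and Ctsz, legumain (Lgmn) and the lysosomal thiol reductase (Ifi30). They were taken by name, with earlier results of these data known. All probe sets annotated to exactly 1 of these symbols were kept, 21 of the 45037 probe sets of the array that are not controls. All 10 genes had at least 1 probe set bright enough to be tested, and 20 of the 21 probe sets were tested. RNA came from monocytes of 12-week-old C57Bl/6 mice, for which the labels name no treatment or transgene, sorted into Gr1hi (Ly-6chi) and Gr1lo (Ly-6clo) cells, called Ly6Chi and Ly6Clo below. Each subset had 4 samples, 1 per sort, and each sort drew on leukocytes pooled from 5 mice, so the spread between samples is between sorts of pooled animals and not between single mice. Ly6Chi cells are known as the classical monocytes that enter inflamed tissue, and Ly6Clo cells as the nonclassical monocytes that patrol vessels. Each sample was read on 1 Affymetrix 3' expression array, and values are given as log2 of the deposited intensity.

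Lysosomal proteases break down proteins that cells take up or recycle. Cathepsins B, C, H, L, S and Z are cysteine proteases, cathepsin D is an aspartic protease, cathepsin A is a serine carboxypeptidase and legumain cuts after asparagine. They are made as inactive precursors and mature in acid compartments, where legumain trims several cathepsins. In antigen-presenting cells the thiol reductase opens disulfide bonds of ingested proteins, and cathepsins S and L cut the invariant chain (Cd74) that blocks the peptide groove of MHC class II molecules. Cathepsin C removes dipeptides and thereby activates serine proteases stored in granules.

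Expression of many lysosomal genes is driven by the factors TFEB, TFE3 and MITF, which bind an E-box with the sequence TCACGTGA. Promoters of 8 of the 10 genes were read from RefSeq (build GRCm38.p6), from 250 bases before to 50 bases after each transcript start, 10 windows in all; Ctsb and Ctsh were not matched. The palindrome TCACGTGA, which reads the same on both strands and contains the shorter E-box CACGTG, stood in the windows of 3 genes, Ctsa, Ctsd and Ifi30, against 0.974% of all 32851 promoter windows. CACGTG alone was found for 5 of the 8 genes, these 3 with Ctsl and Lgmn, against 7.15% of all windows. The interferon regulatory factor core AANNGAAA, searched on both strands because Ifi30 and Ctss are known interferon-inducible genes, was found for Ctsl and Ctss, against 23.9% of all windows. The stretches with TCACGTGA and that of Ctss are shown so that the values that follow can be read beside them. Each stretch holds 80 bases read in the direction of transcription, and capitals mark every match to TCACGTGA or, for Ctss, to AANNGAAA, whose matches run into each other there.
Ifi30, chr8:70766817-70766896, minus strand: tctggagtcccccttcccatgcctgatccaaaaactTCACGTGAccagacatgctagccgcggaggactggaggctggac
Ctsd, chr7:142387883-142387962, minus strand: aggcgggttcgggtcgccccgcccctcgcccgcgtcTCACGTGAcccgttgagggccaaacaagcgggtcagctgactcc
Ctsa, chr2:164833713-164833792, plus strand: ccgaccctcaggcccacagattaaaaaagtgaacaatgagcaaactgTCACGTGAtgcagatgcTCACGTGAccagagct
Ctss, chr3:95526726-95526805, plus strand: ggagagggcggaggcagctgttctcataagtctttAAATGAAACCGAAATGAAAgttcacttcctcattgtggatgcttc

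In the Ifi30 window the E-box began 197 bases before the transcript start, and in the Ctsd window 99 bases before it. Ctsa carried it at 13 bases before the start and again just after the start. The Ctss matches shown began 25, 19 and 14 bases before the start, and another lay after the start, outside the stretch. These are matches of letters and not measured binding.

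The lysosomal proteases did not move as a block. Of the 10 genes, 4 were higher in Ly6Chi (Ifi30, Ctsc, Ctsh and Ctsl), 2 were higher in Ly6Clo (Ctsb and Lgmn) and 4 were not called (Ctss, Ctsd, Ctsz and Ctsa). Each gene was represented by its brightest tested probe set and called at a limma p, adjusted by Benjamini-Hochberg over all 22831 tested probe sets, under 0.05. Over all 11546 genes tested the same way 32.5% were called, 14.1% toward Ly6Clo and 18.5% toward Ly6Chi. By probe set, 13 of 20 were called, 6 toward Ly6Clo and 7 toward Ly6Chi; of all tested probe sets 31.1% were called, 15.2% toward Ly6Clo and 15.9% toward Ly6Chi. No Ly6Chi value fell within the Ly6Clo range for these 13 probe sets, as for 31.8% of all tested probe sets, whereas the ranges met for the other 7. The folds of the called genes ran from 1.41 to 2.14. The median difference over the 10 genes was -0.04 on the log2 scale (Ly6Clo minus Ly6Chi, as throughout), beside -0.012 for all genes, and the median size of the difference was 0.52, beside 0.13 for all genes. The samples are bulk RNA, so fewer cells that carry a transcript and less of it per cell cannot be told apart.

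**Figure D1:**
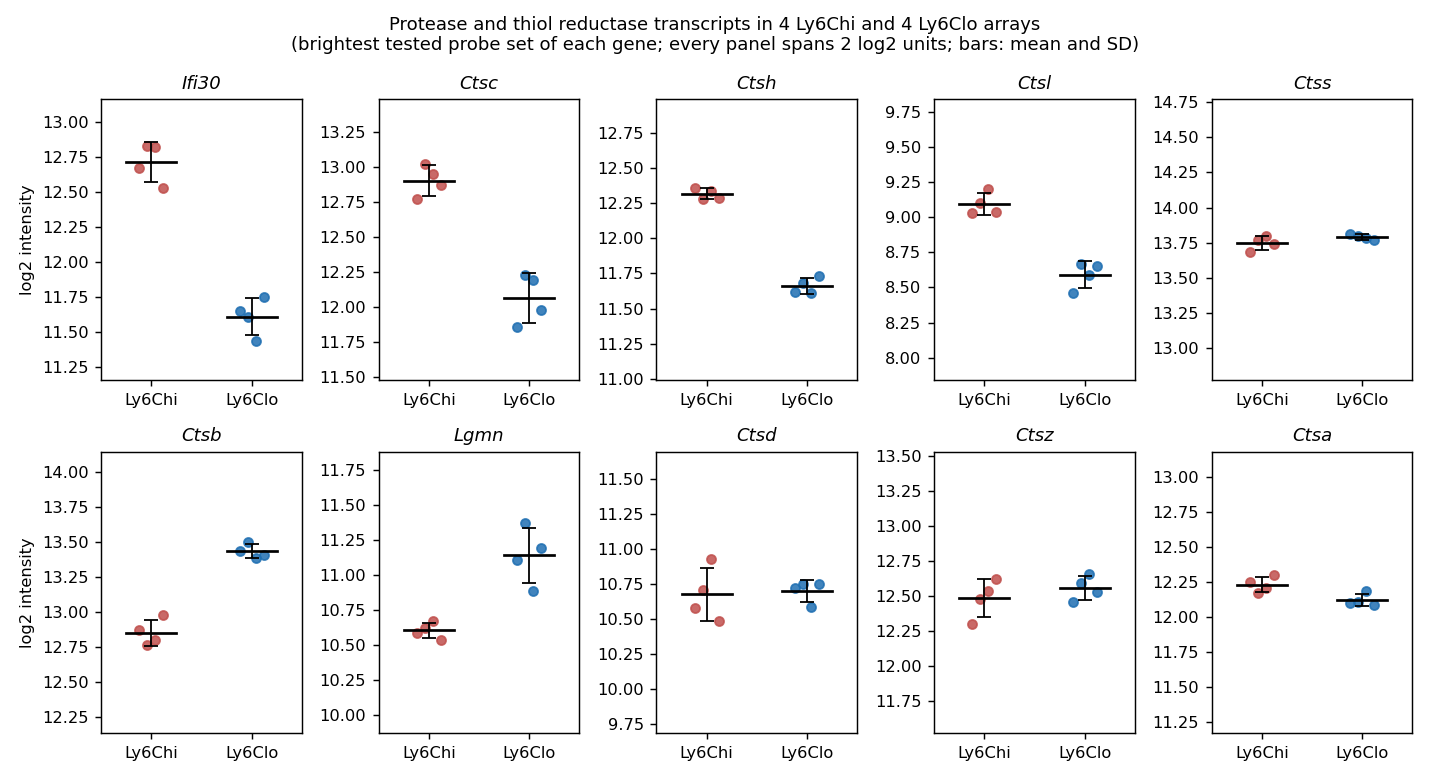
Log2 intensity of the brightest tested probe set of each of the 10 genes in the 4 Ly6Chi (red) and 4 Ly6Clo (blue) arrays; points are arrays, long bars means and whiskers SD, and every panel spans the same log2 range. Ifi30, Ctsc, Ctsh and Ctsl lie lower in Ly6Clo and Ctsb and Lgmn higher, with no overlap, while the points of Ctss, Ctsd, Ctsz and Ctsa overlap.

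The thiol reductase Ifi30, which acts before the proteases by reducing disulfide bonds, showed the largest difference among the 10 representing probe sets. Its log2 values were 12.67, 12.83, 12.82 and 12.53 in the Ly6Chi samples and 11.65, 11.61, 11.44 and 11.75 in the Ly6Clo samples. All 4 Ly6Chi samples lay above all 4 Ly6Clo samples, by at least 0.78. The means were 12.71 ± 0.14 and 11.61 ± 0.13 (SD, n = 4 each), a 2.14-fold higher level in Ly6Chi (log2 difference -1.10, SE 0.09, limma adjusted p = 2.3e-06). A further probe set, annotated jointly to Ifi30 and Pik3r2 and so not counted with either gene, was also called higher in Ly6Chi (log2 difference -0.30, SE 0.09, limma adjusted p = 0.020), although 1 Ly6Clo value reached into the Ly6Chi range. It was dim, with means of 6.88 in Ly6Chi and 6.58 in Ly6Clo beside a table median of 6.36.

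Cathepsin C (Ctsc), the dipeptidyl peptidase that activates granule serine proteases, was higher in Ly6Chi on all 3 of its probe sets. The brightest probe set, 1416382_at, read 12.77, 13.02, 12.95 and 12.87 in Ly6Chi and 11.86, 12.23, 12.19 and 11.98 in Ly6Clo. The subsets did not overlap, and the difference was -0.84 (SE 0.09, limma adjusted p = 2.8e-05), 1.79-fold. On 1437939_s_at the values were 8.87, 9.30, 8.95 and 8.44 in Ly6Chi against 6.77, 7.43, 6.60 and 7.14 in Ly6Clo, a 3.75-fold difference (-1.91, SE 0.20, limma adjusted p = 1.7e-05). The third, 1446834_at, was 2.83-fold higher in Ly6Chi (-1.50, SE 0.19, limma adjusted p = 8.7e-05). Its Ly6Clo mean, 6.36, stood at the median of the whole table, so the size of this difference is less certain. The direction was thus shared, while the size depended on the probe set: averaging the 3 gave -1.42 in place of -0.84, and the 95% intervals of 1416382_at (-1.04 to -0.64) and 1437939_s_at (-2.34 to -1.48) did not overlap. The replicates also spread more on the dimmer probe sets, with an SD of 0.35 and 0.37 on 1437939_s_at against 0.10 and 0.17 on 1416382_at.

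Cathepsin H (Ctsh), an aminopeptidase, gave the tightest replicates of the called genes. Its probe set 1418365_at read 12.36, 12.28, 12.34 and 12.29 in Ly6Chi and 11.62, 11.68, 11.61 and 11.73 in Ly6Clo. The gap between the lowest Ly6Chi and the highest Ly6Clo value was 0.55, far wider than the SD of 0.04 and 0.06. The level was 1.58-fold higher in Ly6Chi (-0.66, SE 0.06, limma adjusted p = 5.9e-06). The second probe set, 1443814_x_at, gave nearly the same difference (-0.70, SE 0.06, limma adjusted p = 5.0e-06).

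Cathepsin L (Ctsl), an endopeptidase that can cut the invariant chain, was the least changed of the genes higher in Ly6Chi. Its probe set 1451310_a_at read 9.03, 9.10, 9.20 and 9.04 in Ly6Chi and 8.46, 8.67, 8.59 and 8.65 in Ly6Clo, again without overlap. The difference was -0.50 (SE 0.07, limma adjusted p = 2.0e-04), 1.41-fold. The other Ctsl probe set, 1457724_at, stayed between 5.60 and 5.97 on all 8 arrays, below the median of the whole table at 6.36, and was not tested.

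Cathepsin S (Ctss), the main invariant chain protease of antigen-presenting cells, stood at nearly the same level in both subsets. Its values were 13.68, 13.77, 13.80 and 13.74 in Ly6Chi and 13.81, 13.80, 13.78 and 13.77 in Ly6Clo. The ranges overlapped and the difference was 0.04 (95% interval -0.08 to 0.17, limma adjusted p = 0.64). A difference of the size seen for Ctsl lies outside that interval. The highest value of the table was 14.73, so Ctss was read near the top of the array's range, and whether that range limited its difference was not tested. Within each array, the log2 ratio of the Ctsl to the Ctss signal was -4.65, -4.68, -4.60 and -4.71 in Ly6Chi and -5.36, -5.13, -5.19 and -5.12 in Ly6Clo. The ratio was lower in 4 of 4 Ly6Clo samples and fell by 0.54 (two-sided exact permutation test over 70 orders, p = 0.0286, the smallest this test can give). Adjusted for the 2 ratios tested, the exact permutation p was 0.0571, which missed the threshold.

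Cathepsin B (Ctsb), a cysteine protease with endopeptidase activity, was higher in Ly6Clo on all 5 of its probe sets. The brightest, 1417490_at, read 12.87, 12.77, 12.80 and 12.98 in Ly6Chi and 13.44, 13.50, 13.39 and 13.41 in Ly6Clo. The lowest Ly6Clo value was 0.40 above the highest Ly6Chi value, and the difference was 0.58 (SE 0.07, limma adjusted p = 3.9e-05), 1.49-fold. The probe set with the largest difference, 1417492_at, read 9.69, 9.46, 9.56 and 9.68 in Ly6Chi and 10.69, 10.64, 10.69 and 10.65 in Ly6Clo, a 2.10-fold difference (1.07, SE 0.07, limma adjusted p = 3.6e-07). Of the others, 1448732_at differed by 0.72 and 1417491_at by 0.67, and 1444987_at, the dimmest, had the smallest difference, 0.54. The Ly6Chi mean of 1444987_at was 6.47, near the table median of 6.36, so the size of its difference is less certain. The 95% interval of 1417492_at (0.92 to 1.22) lay above those of the other 4, so the fold for Ctsb ran from 1.45 to 2.10 depending on the probe set, with 1 direction throughout.

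**Figure D2:**
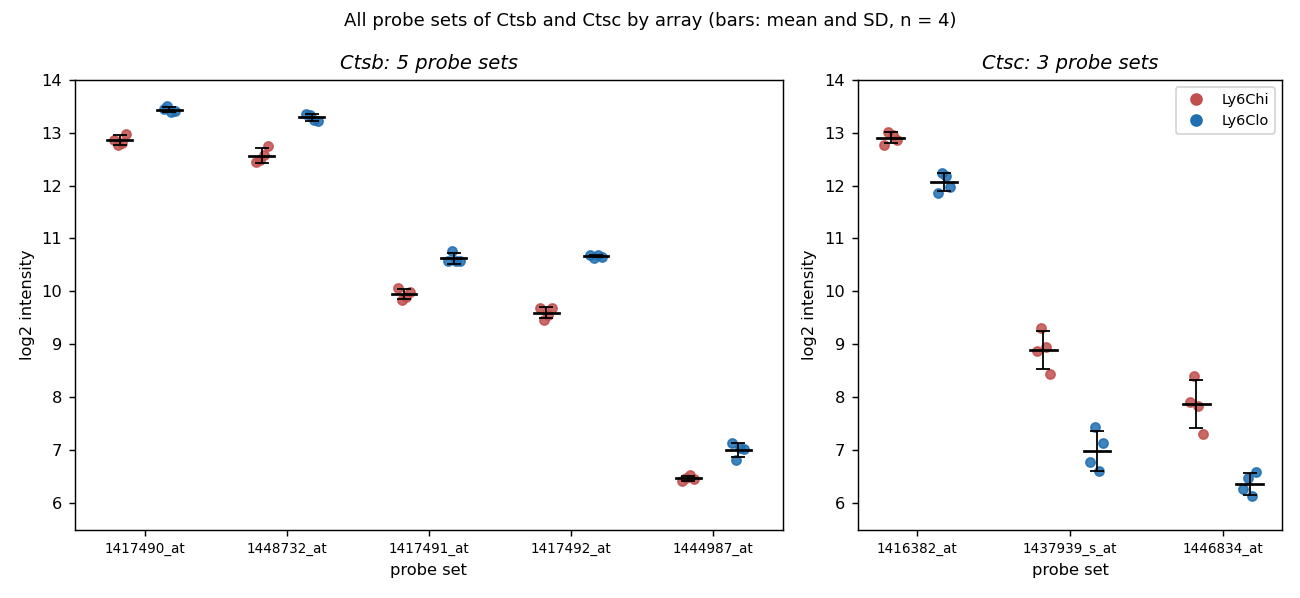
Log2 intensity of every Ctsb and Ctsc probe set in the 4 Ly6Chi (red) and 4 Ly6Clo (blue) arrays; points are arrays and bars give mean and SD. All 5 Ctsb probe sets lie higher in Ly6Clo and all 3 Ctsc probe sets lower, with different distances between the subsets.

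Legumain (Lgmn), which matures cathepsins B, L and H among others, was the second gene higher in Ly6Clo. Its values were 10.59, 10.62, 10.67 and 10.54 in Ly6Chi and 11.11, 11.37, 10.89 and 11.19 in Ly6Clo. The Ly6Clo samples were more scattered (SD 0.20 against 0.06), yet the lowest of them was 0.22 above the highest Ly6Chi sample. The difference was 0.54 (SE 0.09, limma adjusted p = 9.2e-04), 1.45-fold.

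The remaining 3 genes were not called. Cathepsin D (Ctsd), the main aspartic protease of lysosomes, read 10.58, 10.71, 10.93 and 10.49 in Ly6Chi and 10.72, 10.75, 10.59 and 10.75 in Ly6Clo, a difference of 0.03 (95% interval -0.17 to 0.23, limma adjusted p = 0.86), which turned to -0.03 without Ly6Chi replicate 4. The Ly6Clo values fell inside the range of the Ly6Chi values. Cathepsin Z (Ctsz), a carboxypeptidase, had 3 probe sets with differences of 0.08, 0.06 and -0.05, of which the brightest had a 95% interval of -0.10 to 0.25 (limma adjusted p = 0.53). Its brightest probe set read 12.30, 12.48, 12.54 and 12.62 in Ly6Chi and 12.46, 12.59, 12.66 and 12.53 in Ly6Clo, so the ranges were interleaved. Cathepsin A (Ctsa), which also protects the lysosomal enzymes Neu1 and Glb1 in a complex, read 12.25, 12.17, 12.21 and 12.30 in Ly6Chi and 12.10, 12.11, 12.19 and 12.09 in Ly6Clo. Here 3 of 4 Ly6Clo values lay below all Ly6Chi values, and the difference was -0.11 (95% interval -0.24 to 0.02, limma adjusted p = 0.19). The intervals for these genes and for Ctss leave room for small differences, and none of them reaches the smallest called difference, 0.50 in size. Of the genes with the TCACGTGA palindrome shown above, Ifi30 was called and Ctsa and Ctsd were not.

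**Figure D3:**
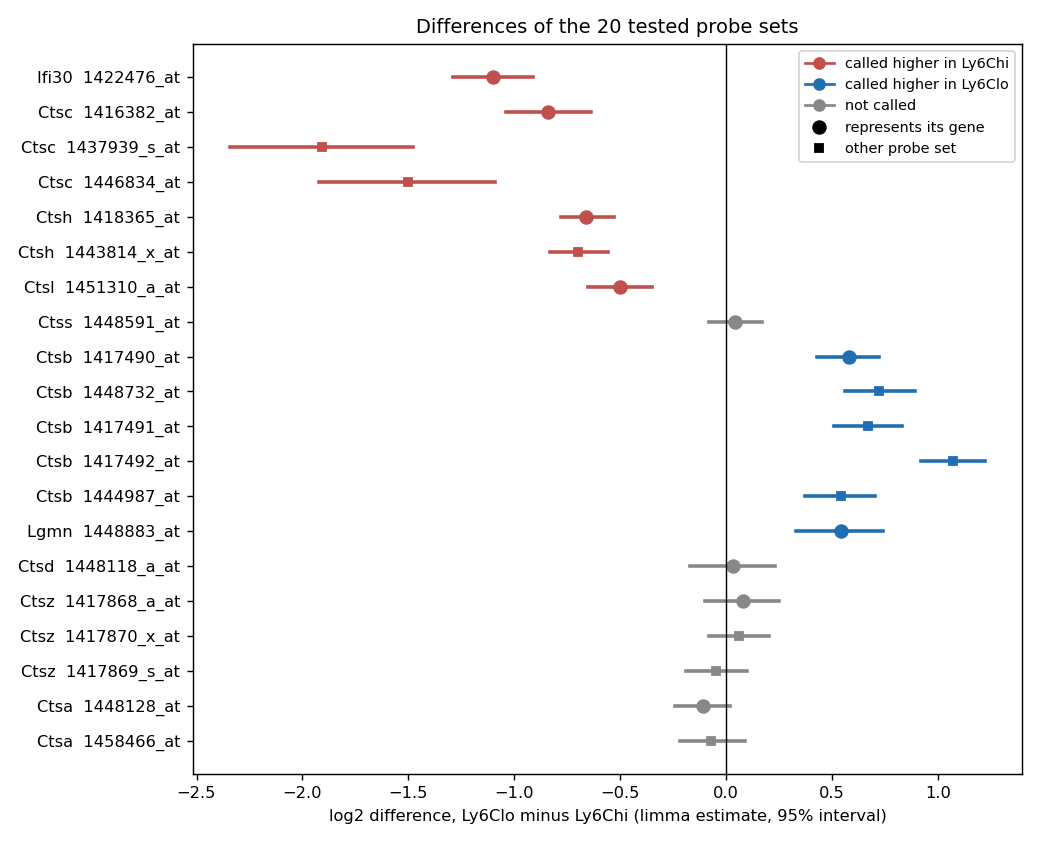
Limma log2 difference (Ly6Clo minus Ly6Chi) with its 95% interval for the 20 tested probe sets, grouped by gene; red and blue mark calls toward Ly6Chi and Ly6Clo, grey no call, and round points the probe set that represents the gene. No gene has called probe sets on both sides of 0, and the 7 grey intervals all include 0.

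The genes around these proteases were described from lists of general knowledge, chosen with earlier results of these data known. Among 14 other cathepsins only 5 were bright enough to be tested, and 1 was called in each direction. Ctso was 1.21-fold higher in Ly6Clo (limma adjusted p = 0.040), with overlapping values. Ctsg, the granule serine protease cathepsin G, was at least 1.40-fold higher in Ly6Chi, counted against the table median because its Ly6Clo mean lay below it (6.84 ± 0.14 against 6.31 ± 0.09, n = 4 each, limma adjusted p = 3.2e-04). Ctsk, the collagen-degrading cathepsin of osteoclasts, was among the 9 not tested.

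Inhibitors of cysteine cathepsins and of granule serine proteases, taken as 1 list, differed in both directions. Of 12 inhibitor genes on the array 7 were tested, with 3 called toward Ly6Clo and 2 toward Ly6Chi. Among the cystatins, which block cysteine cathepsins, the secreted Cst3 read 13.08 ± 0.06 in Ly6Chi and 13.64 ± 0.01 in Ly6Clo (SD, n = 4 each), 1.47-fold higher in Ly6Clo (limma adjusted p = 2.0e-05). The cytosolic Cstb went the other way, with 11.91, 12.03, 12.09 and 11.95 in Ly6Chi against 10.87, 10.98, 10.90 and 10.88 in Ly6Clo, 2.12-fold higher in Ly6Chi (limma adjusted p = 2.1e-07). The serpins divided too. Serpinb6a, an intracellular serpin that inhibits cathepsin G, was 5.59-fold higher in Ly6Clo (2.48, SE 0.10, limma adjusted p = 1.4e-08), and Serpinb1a, an inhibitor of neutrophil-type serine proteases, was 3.01-fold higher in Ly6Chi (-1.59, SE 0.14, limma adjusted p = 5.5e-06). The log2 ratio of Ctsb to Cst3 within an array was -0.22 ± 0.10 in Ly6Chi and -0.20 ± 0.05 in Ly6Clo (n = 4 each), a difference of 0.02 (exact permutation p = 0.686, adjusted over both ratios p = 0.686), since both genes were higher in Ly6Clo by similar amounts. Like Ctss, both were read near the top of the array's range, with Ly6Clo means of 13.43 for Ctsb and 13.64 for Cst3. Whether that range limited their differences was not tested. When all probe sets of a gene were averaged, this ratio differed by 0.16 and passed (exact permutation, adjusted p = 0.029); the averaged Ctsb probe sets include the one with the largest difference. The ratio of Ctsc to its inhibitor cystatin F (Cst7) was not tested because the only Cst7 probe set was too dim to be tested.

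Of the 6 serine proteases that cathepsin C activates, 5 were tested, 2 called toward Ly6Chi and 1 toward Ly6Clo. Prtn3 (proteinase 3) read 8.63, 8.56, 9.03 and 7.84 in Ly6Chi and 6.13, 5.81, 5.86 and 5.68 in Ly6Clo, at least 4.47-fold higher in Ly6Chi (limma adjusted p = 1.6e-06), and Ctsg is described above. Gzma, the granzyme of cytotoxic lymphocytes, was 1.64-fold higher in Ly6Clo (limma adjusted p = 0.0019). The summed intensity of the 4 NK cell markers on the array ran from 624 to 712 in Ly6Chi and from 759 to 948 in Ly6Clo, without overlap. That sum holds Gzma itself, which alone read 140 to 204 in Ly6Chi and 259 to 377 in Ly6Clo, so it is not a separate measure of NK cells. Of the 4 markers, 3 were tested and Gzma alone was called. Nkg7, at a difference of 0.29, and Klrk1, at 0.07, each overlapped between the subsets. The part of NK cells in the Gzma difference was not tested. Neutrophils and their precursors also carry Ctsc, Prtn3 and Ctsg. Of 8 neutrophil marker genes on the array 6 were tested and 2 called, both higher in Ly6Chi (Csf3r 1.48-fold, limma adjusted p = 1.4e-04; Mpo 1.18-fold, limma adjusted p = 0.033), and Cxcr2 and Mmp9 lay too low to be tested. The summed intensity of the 8 genes ran from 1807 to 2070 in Ly6Chi and from 1411 to 1528 in Ly6Clo. Most of it was Csf3r, which alone read 1190 to 1363 in Ly6Chi and 796 to 962 in Ly6Clo. Mpo was dim, with means of 6.64 and 6.40 beside a table median of 6.36. Ltf, Camp, Ngp and Elane were not called, and their values overlapped between the subsets. The part of neutrophils in the Ctsc, Ctsg and Prtn3 differences was not tested.

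The 5 other lysosomal peptidases differed by less than any called member. Napsa, an aspartic protease like cathepsin D, was 1.30-fold higher in Ly6Clo (limma adjusted p = 4.2e-04), while the carboxypeptidases Scpep1 and Prcp were 1.35-fold and 1.18-fold higher in Ly6Chi (limma adjusted p = 0.022 and 0.018). Tpp1 and Dpp7 were not called. Of 11 genes for sorting, cofactors and partners, 3 were called toward Ly6Clo and 4 toward Ly6Chi. The transferase that places the mannose 6-phosphate tag on lysosomal enzymes was split between its subunits, with Gnptab 1.72-fold higher in Ly6Chi (limma adjusted p = 7.2e-05) and Gnptg 1.46-fold higher in Ly6Clo (limma adjusted p = 4.5e-04). The tag receptor Igf2r was 1.37-fold higher in Ly6Clo (limma adjusted p = 2.9e-04), but dim, with means of 6.66 in Ly6Chi and 7.12 in Ly6Clo beside a table median of 6.36. The galactosidase Glb1, a partner of cathepsin A, was 1.66-fold higher in Ly6Chi (limma adjusted p = 3.1e-06), whereas the other partner, Neu1, differed by -0.18 and was not called.

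Among 7 tested transcription factors linked to these genes, 3 were called in each direction. The MiT family members Tfec and Mitf were at least 2.59-fold and 2.42-fold higher in Ly6Chi (limma adjusted p = 1.3e-06 and 2.6e-05). Tfeb of the same family, named here after its values were seen, was 1.18-fold higher in Ly6Clo (limma adjusted p = 0.012), and Tfe3 was not called (difference -0.14). Spi1, which encodes PU.1, was 1.38-fold higher in Ly6Clo (limma adjusted p = 0.0014), as was Ciita, the activator of MHC class II genes, at 1.19-fold (limma adjusted p = 0.037). Ciita was dim, with means of 6.67 in Ly6Chi and 6.91 in Ly6Clo beside a table median of 6.36. Irf8, the other factor called toward Ly6Chi, was 1.51-fold higher there (limma adjusted p = 7.0e-05), with means of 11.30 in Ly6Chi and 10.70 in Ly6Clo. It too was named after its values were seen. Of 8 tested genes listed around class II peptide loading, 3 were called toward Ly6Clo and 1 toward Ly6Chi. That list also holds the class I gene Tap1 and the adaptor gene Ap1s2, neither of them called. Cd74, the substrate of cathepsins S and L, rose from 12.13 ± 0.13 in Ly6Chi to 13.28 ± 0.11 in Ly6Clo (n = 4 each), 2.22-fold (limma adjusted p = 8.4e-07). H2-Oa, part of the brake on peptide exchange, was 1.91-fold higher in Ly6Clo (limma adjusted p = 8.5e-04), and the exchange factor subunit H2-DMa was 1.45-fold higher in Ly6Chi (limma adjusted p = 1.2e-04). B cells and dendritic cells carry class II genes as well: summed B cell markers ran from 643 to 1072 in Ly6Chi and from 456 to 737 in Ly6Clo, with 2 of 4 called higher in Ly6Chi, and summed dendritic cell markers from 2051 to 2380 and from 2002 to 2403, with 1 of 6 tested genes called toward Ly6Clo and 2 toward Ly6Chi. Their part in these differences was not tested.

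**Figure D4:**
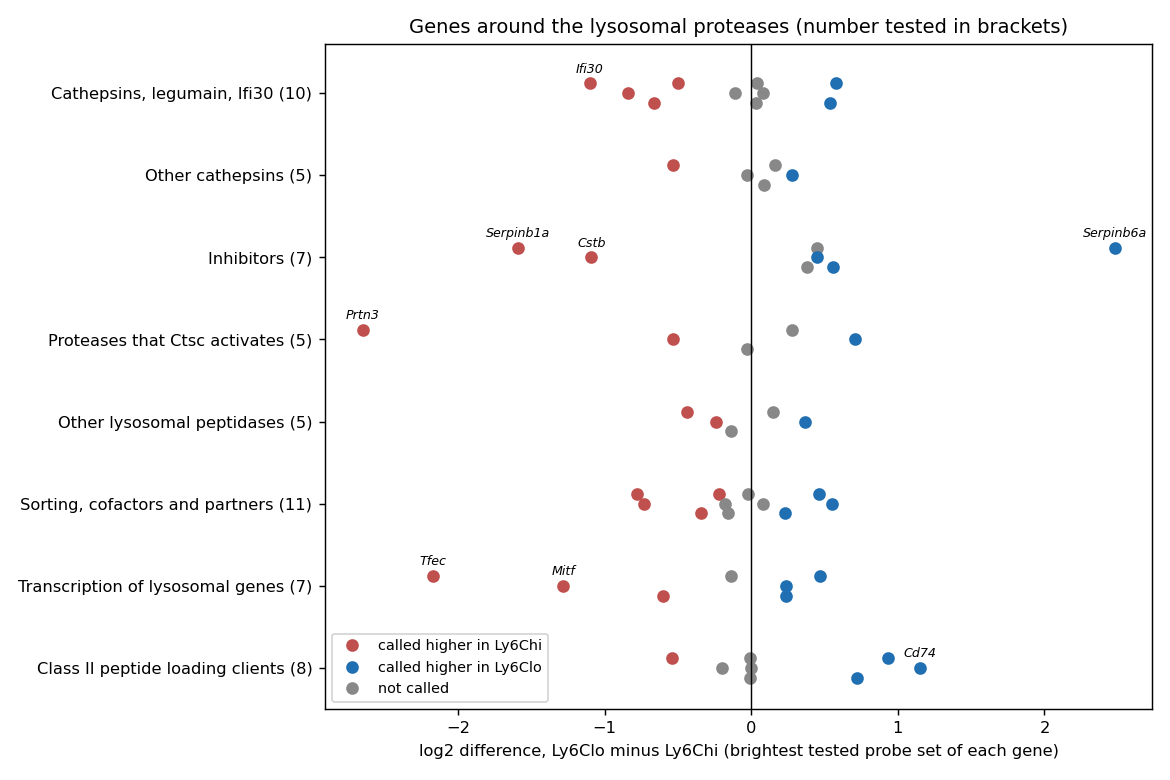
Log2 difference (Ly6Clo minus Ly6Chi) of each tested gene in the group described and in 7 surrounding lists; red and blue mark calls toward Ly6Chi and Ly6Clo, and genes beyond 1 in size are named. Every row has called genes on both sides of 0, and the widest differences are Prtn3, Tfec and Serpinb1a toward Ly6Chi and Serpinb6a toward Ly6Clo.

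Monocyte and subset markers followed the labels of the sorted cells. All 7 monocyte markers were tested, with 3 called toward Ly6Clo and 2 toward Ly6Chi. The largest fold among those called was 1.39, for Fcgr3, higher in Ly6Chi. Csf1r stood at 13.86 in Ly6Chi and 14.06 in Ly6Clo (limma adjusted p = 0.019), and Lyz2 at 14.46 and 14.22 (limma adjusted p = 0.0049). The subset markers on the array were called toward their own subset, 3 of 3 for Ly6Chi and 5 of 5 for Ly6Clo. T cell and platelet markers had no called member among 4 each, NK cell markers 1 of 3 (Gzma), and single tested red cell and tissue macrophage genes were not called. Platelet and red cell signal was present, however, and varied between arrays of a subset. Summed platelet markers ran from 1454 to 3664 in Ly6Chi and from 1709 to 4741 in Ly6Clo. The red cell gene Alas2 read 10.41 ± 0.73 in Ly6Chi and 10.83 ± 0.95 in Ly6Clo (SD, n = 4 each). The part of such cells in the differences above was not tested. Array medians lay between 80.5 and 83.0 on the linear scale and the standard error of a difference had a median of 0.079 over tested probe sets; with 4 arrays a subset, precision is limited by their number.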

How the data were processed

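Total RNA of 8 samples was amplified with a prolonged in vitro transcription and hybridised to 1 array each, per the labels' protocols. The authors deposited probe set intensity values on a linear scale, with array medians from 80.5 to 83.0; GCRMA and MAS5 appear in the submitters' processing notes without a role, so which of them made the values, and any genome build, is not given in the sources used here. Values from 8.64 to 27145 were taken to log2 with no pseudocount. After 64 control probe sets were left out, a probe set was tested if it exceeded the table median (81.9) in at least 4 of 8 arrays, which 22831 of 45037 did. Symbols came from the platform annotation (34945 probe sets with 1 symbol, 932 with several, 9160 unnamed). Differences were fitted genome-wide with limma 3.58.1 in R 4.3.3 (lmFit, eBayes, no block, two-sided), adjusted over all tested probe sets, and tested on simulated data. A gene took its tested probe set with the highest mean. Folds against a subset whose mean was under the table median are lower bounds, taken against that median. Single ratios used exact permutation tests in Python 3.11.15; 2 of 3 planned ratios could be computed and were adjusted together.

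Named were all member probe sets and, in each pathway list, the 2 called genes of greatest fold toward each subset. Cell type markers and other list genes that the text names were chosen after their values were seen. Members and lists were chosen with earlier results of these data known. Alternatives changed the normalization, filter, variance model, array weights, threshold, probe set choice and replicate block, or left out 1 array at a time. Replicates are separate sorts, per the labels; no 2 arrays shared more than 2 identical values.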

Additional observations from a re-analysis of the deposited data

Results flagged for a closer look

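Of 46 groups of 4 values examined (21 member probe sets and 2 ratios in each subset), 4 held a sample apart from the other 3 by Dixon's criterion, which chance gives in about 1 in 20 groups. All 4 were in Ly6Clo. On Ctsb probe set 1417491_at, Ly6Clo replicate 2 read 10.77 on the log2 scale, with the next at 10.58. On Ctsh probe set 1443814_x_at, Ly6Clo replicate 3 read 11.42, with the next at 11.31. On the untested Ctsl probe set 1457724_at, Ly6Clo replicate 4 read 5.95, with the next at 5.72. On Ctsz probe set 1417870_x_at, Ly6Clo replicate 2 read 12.10, with the next at 11.96.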

How the results depend on the processing

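The calls of all 10 genes, and the directions of the 6 called genes, held under the 19 alternatives run for them. The sign of Ctsd, which was not called, turned without Ly6Chi replicate 4 (-0.03 in place of 0.03). The differences ranged from -1.16 to -1.04 for Ifi30, from -1.42 to -0.77 for Ctsc, from 0.55 to 0.72 for Ctsb and from 0.46 to 0.62 for Lgmn. The 13 called member probe sets were 13 under every alternative except that leaving out probe sets ending in _x_at or _s_at, which drops 4 of the 21, gave 11. Over all tested probe sets the calls ran from 4892 (threshold of 0.01) to 7471 (quantile normalization) beside 7108. When all probe sets of a gene were averaged, the Ctsl to Ctss ratio kept its value of -0.54 and passed the threshold (adjusted p = 0.029), because the second ratio, Ctsb to Cst3, then also passed with 0.16. Leaving out an array, this first ratio lay between -0.57 and -0.49. With the replicate block 7164 probe sets were called, and no member call changed. Same-numbered samples deviated together with r of 0.273, 0.340, -0.029 and -0.103 for numbers 1 to 4. Samples of different numbers gave r between -0.414 and 0.554. These correlations cannot settle whether the shared numbers pair the samples. With 4 pairs the paired exact test cannot go below p = 0.125. No detection calls were used here, so the table median stands in for background.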
